A study of Mus musculus with 45 samples.

Results

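The Btg and Tob genes were followed in mouse hippocampal primary neurons that were made to fire and were then silenced or exposed to an excitotoxic stimulus. The members were chosen by gene symbol and were Btg1, Btg2, Btg3, Tob1 and Tob2, that is 5 of the 54532 gene identifiers in the count table, of which 37048 had at least 1 read in any library. Btg4, the other gene of the family, had 0 to 5 reads per library and 39 reads in all 45 libraries, and is not described further.

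Cultures were prepared from newborn C57BL/6N mice, received AraC, an inhibitor of cell division, on DIV3, and were treated at 10 or 11 days in vitro by the labels, or at 11 days by the methods for RNA-seq. Each of 5 independent culture preparations, numbered 1, 3, 6, 7 and 8, gave 1 poly(A)-enriched RNA-seq library in each of 9 conditions, so that every condition had n = 5. The control was left untreated. In 3 conditions, action potential firing was driven by 50 µM bicuculline (Bic), a blocker of the GABA-A receptor, for 0.5 h, 1 h or 2 h. In the short protocol (SP), cultures that had fired for 0.5 h received, for another 0.5 h, 1 µM tetrodotoxin (TTX), which blocks action potentials, or TTX and 30 µM NMDA, which opens synaptic and extrasynaptic NMDA receptors alike. In the long protocol (LP), cultures that had fired for 1 h received, for a second period of 1 h, TTX, TTX/NMDA or 50 µM TBOA, an inhibitor of glutamate transporters that lets synaptic glutamate spill over; Bic stayed in the medium during all interventions. The study names the difference of TTX from uninterrupted Bic the passive effect, that of TTX/NMDA from TTX the active effect, that of TTX/NMDA from uninterrupted Bic the total effect, and that of TBOA from uninterrupted Bic the effect of glutamate spillover. Uninterrupted Bic means 1 h for the SP and 2 h for the LP. All animals were wild type, the cultures hold glia beside neurons, and bath-applied NMDA reaches every cell of a culture.

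BTG/TOB proteins share an amino-terminal domain through which BTG1, BTG2, TOB1 and TOB2 bind the deadenylases CNOT7 and CNOT8 of the CCR4-NOT complex, which shortens the poly(A) tails of mRNAs. TOB1 and TOB2 also carry motifs that bind poly(A)-binding protein and can be brought to particular mRNAs by sequence-specific RNA-binding proteins such as the CPEB proteins. The family was first known for slowing the cell cycle when overexpressed, and Btg2 is a classic early response gene that growth factors, DNA damage and neuronal activity switch on without new protein synthesis.

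The genes lie apart from each other in the genome (GRCm38, Ensembl gene models). Btg1 (ENSMUSG00000036478) is at chr10:96617006-96622809 on the plus strand with 5276 exonic bases, and Btg2 (ENSMUSG00000020423) is at chr1:134075170-134079120 on the minus strand with 2743. Tob1 (ENSMUSG00000037573) is at chr11:94211454-94215495 on the plus strand with 2288 exonic bases, and Tob2 (ENSMUSG00000048546) is at chr15:81848272-81858796 on the minus strand with 6664. Btg3 (ENSMUSG00000022863) is at chr16:78332637-78377192 on the minus strand with 4014 exonic bases, of which 695 (17.3%) lie opposite exons of Cxadr, an adhesion molecule gene with a median of 11508 reads per library. Of the exonic bases of Tob2, 289 (4.3%) lie opposite the non-coding gene Gm49476, which had at most 19 reads per library. Reads were counted by strand, and the genes annotated as Btg1-ps1 and Btg1-ps2 had 0 reads in every library.

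The 250 bases before the RefSeq start of the 4 members that changed with activity are shown because 3 of them hold letters of the cAMP response element, the site bound by CREB, a factor that calcium entry activates. They were read on the strand of the gene from GRCm38.p6, and capitals mark the full element TGACGTCA and the TATAAA box. Capitals also mark TGACG, the shorter form of the element, which reads CGTCA where it lies on the other strand.

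Btg1, plus strand, chr10:96616751-96617000: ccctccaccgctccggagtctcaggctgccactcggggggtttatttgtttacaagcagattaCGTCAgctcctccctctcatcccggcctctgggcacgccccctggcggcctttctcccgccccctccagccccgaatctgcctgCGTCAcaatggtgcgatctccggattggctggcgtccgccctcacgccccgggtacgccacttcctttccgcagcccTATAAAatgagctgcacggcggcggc

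Btg2, minus strand, chr1:134079156-134079405: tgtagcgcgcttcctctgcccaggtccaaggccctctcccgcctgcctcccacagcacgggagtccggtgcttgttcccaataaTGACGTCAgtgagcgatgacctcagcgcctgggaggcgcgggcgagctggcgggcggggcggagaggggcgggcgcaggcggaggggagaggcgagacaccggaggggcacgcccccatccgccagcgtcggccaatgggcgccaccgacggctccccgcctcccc

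Tob1, plus strand, chr11:94211204-94211453: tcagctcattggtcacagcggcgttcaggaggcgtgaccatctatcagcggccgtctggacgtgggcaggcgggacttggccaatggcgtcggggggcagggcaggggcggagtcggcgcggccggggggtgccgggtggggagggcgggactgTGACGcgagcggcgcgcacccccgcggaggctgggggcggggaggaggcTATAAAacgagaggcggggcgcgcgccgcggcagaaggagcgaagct

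Tob2, minus strand, chr15:81858327-81858576: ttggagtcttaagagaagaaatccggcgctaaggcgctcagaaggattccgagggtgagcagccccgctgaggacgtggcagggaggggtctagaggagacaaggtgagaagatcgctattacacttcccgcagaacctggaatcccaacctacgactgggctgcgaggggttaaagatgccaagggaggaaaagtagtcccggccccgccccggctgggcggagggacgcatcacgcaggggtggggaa

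The Btg2 window holds the full TGACGTCA at 166 to 159 bases before the start, and no TATAAA. Of 32851 RefSeq promoters of the same length, 508 (1.55%) hold TGACGTCA on either strand. The Btg1 window holds the shorter element on the other strand at 187 to 183 and at 103 to 99 bases before the start, and a TATAAA at 26 to 21. Tob1 has the shorter element at 96 to 92 bases before its start and a TATAAA at 47 to 42. TGACG, which is also part of the full element, is found in 17.8% of the promoters and TATAAA in 12.4%. The Tob2 window holds none of these letters, and the 2 windows before the RefSeq starts of Btg3 hold none either. The Tob2 window and 1 of the 2 Btg3 windows lie inside the Ensembl gene models given above. The bases before the Ensembl start of Tob2 were not searched. The CArG box (bound by serum response factor, 1.47% of promoters), TGANTCA (bound by AP-1 factors, 6.75%) and GCGTGGGCG (bound by EGR factors, 0.536%) were searched on both strands and found in none of the 6 windows of the members. CCAAT, held by 33.8% of the promoters, is in the Btg1, Btg2, Btg3 and Tob1 windows and not in that of Tob2.

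The libraries held 11316580 to 81129276 counted reads, with a median of 26239614, and no library had the counts of another. Levels are given as CPM, the counts of a gene relative to the size of its library, scaled over all 45 libraries, and log2 fold changes come from quasi-likelihood fits in edgeR, with p-values adjusted by Benjamini-Hochberg over all genes tested. A gene is called where its adjusted p is below 0.05. All 9 neuronal markers were present, with a summed level of 6460 to 8590 CPM, against 857 to 1840 CPM for 6 astrocyte markers, 99 to 309 CPM for 6 markers of the oligodendrocyte lineage, 4.49 to 19.1 CPM for 4 genes of dividing cells and 2.54 to 5.34 CPM for 4 microglial markers. The endothelial marker Cldn5 was at most 0.0894 CPM.

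Bic raised 4 of the 5 members at every time, with different courses. Btg2 rose most and peaked at 1 h, Tob1 peaked at 1 h and fell again by 2 h, Tob2 was highest at 1 h with no called change to 2 h, and Btg1 kept climbing to 2 h. Btg3 was not called at any time. In all, 4 members were called higher after 0.5 h, when 0.289% of the 30133 genes tested were higher, and the same 4 were higher after 1 h, against 0.965% of 30765 genes, and after 2 h, against 4.24% of 30929 genes. Among the genes called higher, Btg2 ranked 10th of 87 by size at 0.5 h, 17th of 297 at 1 h and 65th of 1311 at 2 h, and by adjusted p it ranked 5th, 3rd and 16th.

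In the untreated cultures, Btg2 measured 24.3, 19.8, 17.6, 20.6 and 24.1 CPM in preparations 1, 3, 6, 7 and 8. After 0.5 h of Bic the values were 138, 201, 198, 175 and 204 CPM, and after 1 h they were 361, 340, 334, 326 and 399 CPM. By 2 h they had come to 293, 258, 270, 222 and 181 CPM. No Bic library came near the control, and the 2 h libraries all lay below the 1 h libraries. Relative to control, Btg2 was 8.67-fold higher at 0.5 h (log2 3.12, SE 0.10, adjusted p = 4.6e-31), 16.6-fold at 1 h (log2 4.05, SE 0.10, adjusted p = 7.6e-30) and 11.5-fold at 2 h (log2 3.52, SE 0.11, adjusted p = 1.9e-23). The fall from 1 h to 2 h (log2 -0.53, SE 0.08, adjusted p = 2.9e-05) was seen in 5 of 5 preparations and was steepest in preparation 8, at -1.14. In bulk RNA, fewer cells with a transcript and less of it per cell cannot be told apart.

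Btg1, a close relative of Btg2, started from 19.1, 24.9, 23.3, 27 and 22.8 CPM in preparations 1, 3, 6, 7 and 8. It reached 33.3, 38.5, 41.2, 37.3 and 39.2 CPM at 0.5 h and 60.7, 54.3, 64.2, 60.3 and 73 CPM at 1 h. At 2 h it measured 82.9, 77.4, 83.6, 68.2 and 70.5 CPM. The control, 0.5 h and 1 h libraries did not overlap, while the ranges of 1 h and 2 h did. Btg1 was 1.61-fold higher than control at 0.5 h (log2 0.69, SE 0.09, adjusted p = 1.0e-06), 2.64-fold at 1 h (log2 1.40, SE 0.09, adjusted p = 4.3e-15) and 3.22-fold at 2 h (log2 1.69, SE 0.09, adjusted p = 5.3e-17). The further rise from 1 h to 2 h was small (log2 0.29, SE 0.07, adjusted p = 0.013), went upward in 4 of 5 preparations, and was not called without preparation 1 (adjusted p = 0.11) or without preparation 3 (adjusted p = 0.083).

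Tob1, which links deadenylases to poly(A)-binding protein, went from 22.7, 33.8, 25.9, 33.6 and 26.8 CPM in the control to 43.2, 61.4, 67.2, 62.6 and 62.8 CPM at 0.5 h. Its level was 84, 76.6, 80.4, 85.9 and 75.2 CPM at 1 h and 49.8, 47.9, 54.2, 48.2 and 37.2 CPM at 2 h. The 0.5 h value of preparation 1 lay apart below the others, and the 2 h libraries all lay under the 1 h libraries but above the control. Tob1 was 2.07-fold higher than control at 0.5 h (log2 1.05, SE 0.10, adjusted p = 4.5e-11), 2.79-fold at 1 h (log2 1.48, SE 0.09, adjusted p = 9.5e-16) and 1.64-fold at 2 h (log2 0.71, SE 0.10, adjusted p = 1.9e-06). Between 1 h and 2 h it fell by 0.77 on the log2 scale (SE 0.08, adjusted p = 2.8e-09), in 5 of 5 preparations, which ranked 2nd by adjusted p among the 867 genes called lower in that step. In that step 3 members were called, Btg1 higher, as were 2.53% of the 30975 genes tested, and Btg2 and Tob1 lower, as were 2.8%.

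Tob2, the paralogue of Tob1, had control values of 15.5, 14.3, 14.8, 18.7 and 16.5 CPM and 0.5 h values of 19.2, 27.8, 29.2, 27.6 and 23 CPM. At 1 h it measured 55, 41, 54.4, 54.3 and 51.7 CPM, and at 2 h 48.6, 47.2, 55.8, 41.6 and 36.2 CPM. The control, 0.5 h and 1 h libraries did not overlap, preparation 3 lay apart below the others at 1 h, and the 1 h and 2 h ranges overlapped. Tob2 was 1.59-fold higher than control at 0.5 h (log2 0.67, SE 0.11, adjusted p = 3.0e-05), 3.19-fold at 1 h (log2 1.67, SE 0.10, adjusted p = 2.9e-17) and 2.84-fold at 2 h (log2 1.51, SE 0.10, adjusted p = 4.3e-14). From 1 h to 2 h the difference was -0.17 (SE 0.09, adjusted p = 0.46), with a 95% interval of -0.34 to 0.01.

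The step from 0.5 h to 1 h was called for the same 4 members, where 0.634% of 30267 genes were higher. It was 2.01-fold for Tob2 (log2 1.01, SE 0.09, adjusted p = 3.4e-14) and 1.92-fold for Btg2 (log2 0.94, SE 0.08, adjusted p = 6.0e-15). Btg1 gained 1.64-fold in that step (log2 0.72, SE 0.08, adjusted p = 3.4e-10) and Tob1 1.35-fold (log2 0.43, SE 0.08, adjusted p = 3.2e-04). The log2 ratio of Tob1 to Tob2 thus went from 0.83 in the control to 1.23 at 0.5 h, 0.66 at 1 h and 0.05 at 2 h. The change of this ratio from control to 2 h was -0.78 ± 0.28 (SD, n = 5 preparations) and went downward in all 5 (two-sided exact sign-flip permutation test, p = 0.0625, the smallest that 5 preparations allow, and 0.0734 after adjustment over 27 such ratios).

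**Figure D1:**
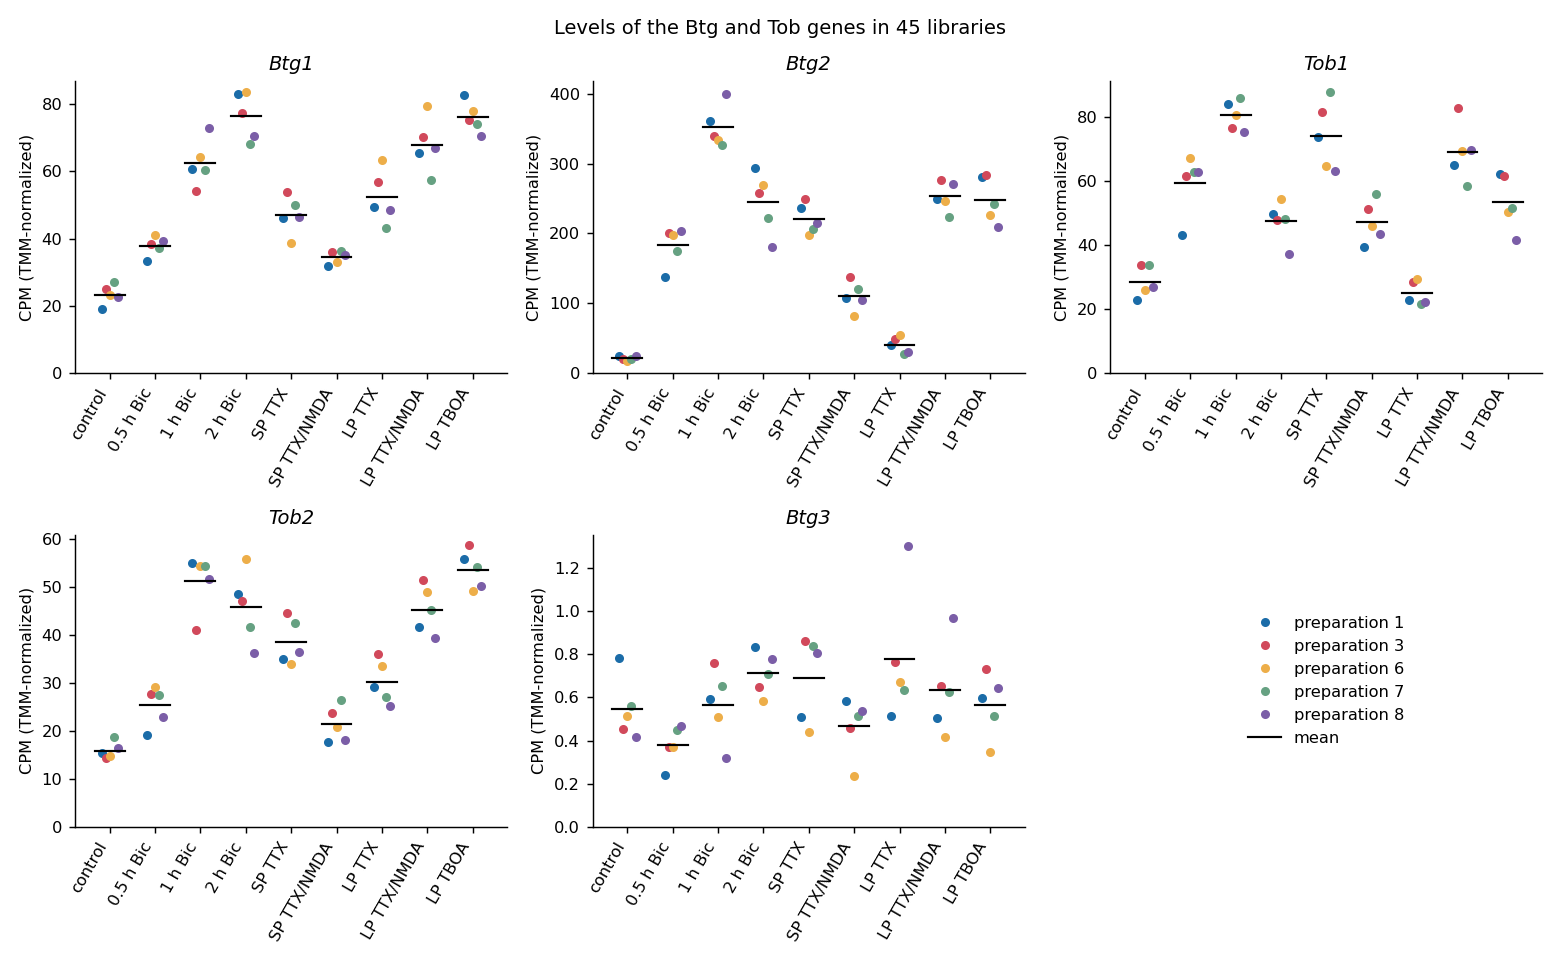
Level of each Btg and Tob gene in the 45 libraries, in CPM on linear axes that start at 0, 1 panel per gene with its own scale. Points are libraries coloured by preparation and the black bar is the mean of the 5 preparations; Btg2 spans 17.6 to 399 CPM, while no Btg3 library exceeds 1.3 CPM.

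Per kilobase of exon, the scale on which levels of different genes can be set side by side, Tob1 was the most abundant member in the control, with 12.5 ± 2.14 CPM per kb (SD, n = 5). Btg2 followed with 7.75 ± 1.05, Btg1 with 4.43 ± 0.555, Tob2 with 2.39 ± 0.262 and Btg3 with 0.136 ± 0.0359 CPM per kb. Tob1 made up 45.7% ± 4.45 of the family's summed level in the control and Btg2 28.7% ± 4.85. After 0.5 h of Bic, Btg2 made up 64.3% ± 1.5 and Tob1 25% ± 1.18, and at 2 h these shares were 67.6% ± 1.98 and 15.9% ± 1.12. The summed level rose from 27.2 ± 2.49 CPM per kb in the control to 104 ± 14.8 at 0.5 h and 183 ± 10.9 at 1 h, and was 131 ± 20.5 at 2 h. Across the other arms Btg2 held between 56.6% ± 4.15 (SP TTX/NMDA) and 66.3% ± 0.771 (LP TBOA) of the sum, with the exception of LP TTX, where it held 36.2% ± 3.43. In LP TTX the sum was 40.2 ± 7.63 CPM per kb, Tob1 held 27.2% ± 1.6 of it and Btg1 24.8% ± 1.39.

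**Figure D2:**
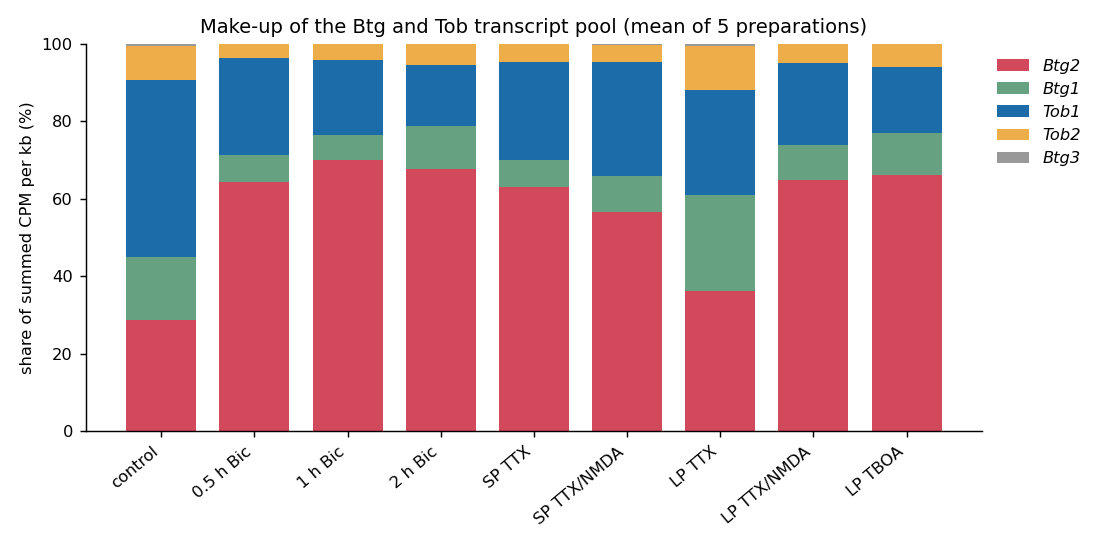
Share of each gene in the summed CPM per kilobase of exon of the 5 Btg and Tob genes, in percent, as the mean of 5 preparations in each condition. Btg2 takes 28.7% in the control, 36.2% after 1 h of TTX in the long protocol and 56.6% to 70% of the sum elsewhere.

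In the SP, silencing the cultures for 0.5 h lowered Btg2, Btg1 and Tob2 relative to 1 h of Bic, and adding NMDA lowered all 4 responsive members further. For the passive effect, 3 of the 5 members were called, all lower, against 0.252% of 31765 genes. For the active effect 4 members were lower, as were 3.32% of 32229 genes, and for the total effect the same 4 were lower, as were 3.41% of 31414 genes.

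After SP TTX, Btg2 measured 237, 250, 198, 206 and 215 CPM in preparations 1, 3, 6, 7 and 8, and after SP TTX/NMDA it measured 107, 138, 81.7, 120 and 105 CPM. Neither range overlapped the other or that of 1 h Bic. The passive effect on Btg2 was 0.626-fold (log2 -0.68, SE 0.07, adjusted p = 5.3e-08), the active effect 0.495-fold (log2 -1.01, SE 0.09, adjusted p = 8.2e-10) and the total effect 0.312-fold (log2 -1.68, SE 0.09, adjusted p = 2.0e-16), each in the same direction in 5 of 5 preparations.

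Btg1 stood at 46.2, 53.8, 38.8, 49.9 and 46.4 CPM in SP TTX and at 32, 36, 33.2, 36.4 and 35 CPM in SP TTX/NMDA. All TTX libraries lay below those of 1 h Bic, though preparation 3 differed from its own 1 h Bic library by only -0.01 on the log2 scale. The passive effect on Btg1 was 0.748-fold (log2 -0.42, SE 0.08, adjusted p = 0.0045). The call was lost with filterByExpr alone, a filter on low counts (log2 -0.42, adjusted p = 0.14). It was also lost with that filter and the preparation as a block (log2 -0.43, adjusted p = 0.064), a fit in which 0.457% of 15540 genes were lower. Its active effect was 0.733-fold (log2 -0.45, SE 0.08, adjusted p = 2.0e-04), and its total effect was 0.552-fold (log2 -0.86, SE 0.08, adjusted p = 1.9e-10).

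Tob1 measured 73.7, 81.4, 64.6, 87.8 and 63 CPM in SP TTX, a range that overlapped that of 1 h Bic. With NMDA it came to 39.3, 51.2, 45.8, 56 and 43.3 CPM, below every TTX library. The passive difference of Tob1 was -0.13 (SE 0.08, adjusted p = 0.88, 95% interval -0.28 to 0.02), whereas the active effect was 0.635-fold (log2 -0.66, SE 0.09, adjusted p = 3.5e-06) and the total effect 0.585-fold (log2 -0.77, SE 0.08, adjusted p = 4.8e-09).

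Tob2 was at 35, 44.6, 33.9, 42.5 and 36.4 CPM in SP TTX and at 17.7, 23.8, 20.9, 26.4 and 18.2 CPM in SP TTX/NMDA. The SP TTX range overlapped that of 1 h Bic through preparation 3, which was the lowest at 1 h Bic and the highest after TTX. The passive effect on Tob2 was 0.745-fold (log2 -0.42, SE 0.08, adjusted p = 0.0059), in 4 of 5 preparations. It was not called with filterByExpr alone (adjusted p = 0.15) or with filterByExpr and the preparation as a block (log2 -0.43, adjusted p = 0.087). The call was also lost in the fit over all 45 libraries (adjusted p = 0.11), without preparation 1 (adjusted p = 0.097) and without preparation 6 (adjusted p = 0.053). Its active effect was 0.556-fold (log2 -0.85, SE 0.09, adjusted p = 1.2e-07) and its total effect 0.417-fold (log2 -1.26, SE 0.09, adjusted p = 1.7e-12), both in 5 of 5 preparations.

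Set against the moment of the intervention, 0.5 h of Bic, the SP TTX libraries held more Tob2 (1.5-fold, log2 0.58, SE 0.09, adjusted p = 1.6e-05), and 1 member was called where 0.296% of 31379 genes were higher. Btg1, Btg2 and Tob1 had differences of 0.26 to 0.30 that were not called, with adjusted p from 0.13 to 0.39. Without preparation 6 all 3 were called, so that 4 members were, and without preparation 8 Btg2 and Tob1 were, so that 3 members were. The SP TTX/NMDA libraries held less Btg2 than at 0.5 h Bic (0.594-fold, log2 -0.75, SE 0.10, adjusted p = 2.7e-06) and less Tob1 (0.781-fold, log2 -0.36, SE 0.09, adjusted p = 0.022). There 2 members were called, as were 2.58% of 30883 genes in that direction, and with the preparation as a block 4 were called, as were 17.3% of 15321 genes in that direction, with Btg1 at adjusted p = 0.032 and Tob2 at adjusted p = 0.0074. Without preparation 6 the call of Tob1 was lost (adjusted p = 0.08). In the same comparison 2 of 6 astrocyte markers were higher and 1 lower, and 2 of 9 neuronal markers were lower. In SP TTX against 0.5 h Bic 1 of 6 astrocyte markers was higher. The part of these cells was not tested. Against the untreated control, all 4 were still higher in SP TTX/NMDA, where 0.703% of 31304 genes were, from 5.19-fold for Btg2 (log2 2.37, SE 0.11, adjusted p = 3.8e-19) to 1.33-fold for Tob2 (log2 0.41, SE 0.11, adjusted p = 0.039). The Tob2 call was lost without any 1 of preparations 3, 6 and 7, at adjusted p up to 0.14.

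In the LP, 1 h of TTX lowered all 4 responsive members, and with NMDA added to TTX all 4 members were higher than with TTX alone, so that the total effect was near 0 for Btg2 and Tob2 and upward for Tob1. The passive effect was called for 4 members, all lower, against 1.62% of 31944 genes, and the active effect for the same 4, all higher, against 11.6% of 32852 genes. For the total effect 1 member was called, Tob1, higher, as were 11.7% of 32243 genes. The passive and active effects share the TTX libraries. For the passive effect 1 of 6 markers of the oligodendrocyte lineage was lower, Olig2 (log2 -0.51, SE 0.15, adjusted p = 0.038). No marker of the other lists was called, and the part of these cells was not tested.

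Btg2 measured 40.1, 48.7, 54.2, 28.2 and 31.1 CPM in LP TTX and 249, 277, 246, 224 and 271 CPM in LP TTX/NMDA. The TTX libraries lay above all control libraries and far below all others, and the TTX/NMDA range lay within that of 2 h Bic. The passive effect on Btg2 was 0.164-fold (log2 -2.61, SE 0.13, adjusted p = 2.5e-16), which ranked 9th by size among the 516 genes called lower. The active effect was 6.26-fold (log2 2.65, SE 0.12, adjusted p = 5.7e-16) and ranked 321st by size and 3rd by adjusted p among 3807 genes called higher. The total effect was 1.03-fold (log2 0.04, SE 0.09, adjusted p = 0.81, 95% interval -0.14 to 0.21).

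For Tob1 the LP TTX libraries gave 22.8, 28.3, 29.3, 21.6 and 22.2 CPM and the LP TTX/NMDA libraries 64.8, 82.8, 69.2, 58.3 and 69.5 CPM. The TTX range overlapped that of the control, and the TTX/NMDA range lay above that of 2 h Bic. The passive effect was 0.519-fold (log2 -0.95, SE 0.09, adjusted p = 5.8e-09), the active effect 2.76-fold (log2 1.47, SE 0.09, adjusted p = 3.7e-13) and the total effect 1.44-fold (log2 0.52, SE 0.09, adjusted p = 2.0e-05), each in 5 of 5 preparations.

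Tob2 came to 29.2, 36.1, 33.5, 27 and 25.2 CPM in LP TTX and 41.6, 51.5, 49, 45.3 and 39.3 CPM in LP TTX/NMDA, without overlap. Its passive effect was 0.654-fold (log2 -0.61, SE 0.09, adjusted p = 4.6e-05) and its active effect 1.49-fold (log2 0.58, SE 0.09, adjusted p = 1.3e-05). The total effect on Tob2 was 0.976-fold (log2 -0.03, SE 0.09, adjusted p = 0.83, 95% interval -0.22 to 0.15).

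Btg1 was at 49.5, 56.7, 63.4, 43.2 and 48.5 CPM in LP TTX and 65.3, 70.1, 79.3, 57.4 and 66.8 CPM in LP TTX/NMDA. The 2 ranges overlapped, but each preparation was higher with NMDA than without. Its passive effect was 0.678-fold (log2 -0.56, SE 0.08, adjusted p = 1.6e-05) and its active effect 1.29-fold (log2 0.37, SE 0.09, adjusted p = 0.0021). The total effect on Btg1 was 0.876-fold (log2 -0.19, SE 0.08, adjusted p = 0.085), lower in 5 of 5 preparations, and was called with the preparation as a block (log2 -0.16, adjusted p = 0.022), where 25.7% of 15947 genes were lower, and without preparation 8 (adjusted p = 0.022).

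Markers of other cells moved in the same comparison as the LP active effect. Of 6 astrocyte markers 5 were called higher and 1 lower, and their summed level was 944 to 1400 CPM in LP TTX and 1060 to 1840 CPM in LP TTX/NMDA. Of 6 markers of the oligodendrocyte lineage 4 were higher, with sums of 99 to 166 and 156 to 309 CPM, and all 4 genes of dividing cells were higher, with sums of 5.11 to 11.7 and 11 to 19.1 CPM. Of 9 neuronal markers 4 were lower, with sums of 7710 to 8590 and 6700 to 7290 CPM, and of 4 microglial markers 1 (P2ry12) was higher, with sums of 3.18 to 4.9 and 3.16 to 5.09 CPM. Of the same 6 astrocyte markers 5 were also higher in LP TTX/NMDA than at 2 h Bic, at 1 h Bic and in the control, and 1 was lower than at 2 h Bic and at 1 h Bic. In these comparisons 4 markers of the oligodendrocyte lineage were higher each time. Of the 4 genes of dividing cells 3, 4 and 3 were higher. Of 9 neuronal markers 1 was higher and 4 lower than at 2 h Bic, and 2 higher and 2 lower than at 1 h Bic and in the control. Of 4 microglial markers 1 was higher than at 1 h Bic. The part of these cells in the change of the Btg and Tob genes was not tested. The log2 differences of the 5 astrocyte markers that were higher lay between 0.80 and 0.90 and those of the 4 markers of the oligodendrocyte lineage between 0.74 and 1.26, beside 2.65 for Btg2, 1.47 for Tob1, 0.58 for Tob2 and 0.37 for Btg1. In the SP active effect none of the lists of the oligodendrocyte lineage, microglia or dividing cells had a called member, 1 astrocyte marker was lower, and of the neuronal markers 1 was higher and 2 were lower.

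**Figure D3:**
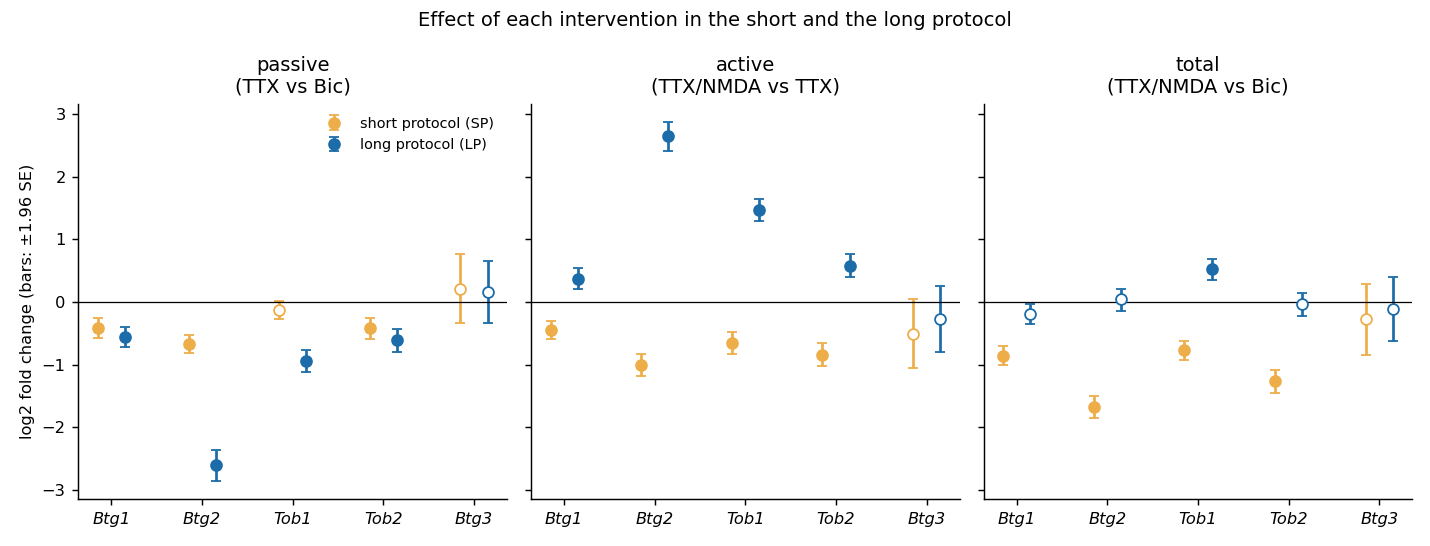
Log2 fold change of each member for the passive, active and total effect, with the short protocol in orange and the long protocol in blue; bars are 95% intervals, and filled points are called at an adjusted p below 0.05. The active effects of Btg1, Btg2, Tob1 and Tob2 lie below 0 in the short and above 0 in the long protocol.

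The difference between the protocols was tested as an interaction over 20 libraries. For the active effect, 4 members were called, against 0.722% of 35027 genes with a more positive effect in the LP. The LP effect exceeded the SP effect by 3.67 on the log2 scale for Btg2 (SE 0.17, adjusted p = 6.9e-18), by 2.14 for Tob1 (SE 0.14, adjusted p = 1.0e-13), by 1.44 for Tob2 (SE 0.14, adjusted p = 6.2e-09) and by 0.83 for Btg1 (SE 0.13, adjusted p = 3.1e-05). In each of the 5 preparations all 4 differences had this sign. For the passive effect 2 members were called, both more negative in the LP, as were 0.0699% of 34313 genes: Btg2 by -1.94 (SE 0.16, adjusted p = 2.1e-11) and Tob1 by -0.82 (SE 0.13, adjusted p = 1.4e-04). The passive differences of Btg1 (-0.15, SE 0.12, 95% interval -0.38 to 0.09) and Tob2 (-0.19, SE 0.14, 95% interval -0.46 to 0.07) were not called. For the total effect the 4 members differed by 1.72 (Btg2, SE 0.14), 1.30 (Tob1, SE 0.13), 1.23 (Tob2, SE 0.15) and 0.67 (Btg1, SE 0.11), with adjusted p from 1.8e-10 to 4.4e-04, where 0.42% of 34304 genes were called in that direction. The protocols differ in the length of Bic and of the intervention together, and these cannot be told apart.

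Relative to the 1 h Bic level at which the LP interventions began, 4 members were lower in LP TTX, as were 2.85% of 31856 genes. Btg2 was 0.114-fold (log2 -3.14, SE 0.11, adjusted p = 1.1e-22), the 3rd lowest adjusted p among 909 genes called lower, and Tob1 was 0.307-fold (log2 -1.70, SE 0.08, adjusted p = 4.4e-19). Tob2 was 0.586-fold (log2 -0.77, SE 0.09, adjusted p = 2.2e-08). Btg1 was 0.831-fold (log2 -0.27, SE 0.08, adjusted p = 0.039), a call lost without any 1 of preparations 1, 7 and 8, at adjusted p up to 0.19. The Btg1 call was also lost with DESeq2 (adjusted p = 0.068), with filterByExpr (adjusted p = 0.081) and in the fit over all 45 libraries (adjusted p = 0.067). With the preparation as a block it was kept (adjusted p = 0.018). In LP TTX/NMDA 2 members were lower than at 1 h Bic, as were 10.2% of 32159 genes, Btg2 at 0.715-fold (log2 -0.48, SE 0.07, adjusted p = 2.6e-06) and Tob1 at 0.851-fold (log2 -0.23, SE 0.08, adjusted p = 0.027), the latter not called without preparation 1 (adjusted p = 0.13) or without preparation 7 (adjusted p = 0.23). Without preparation 3 Tob2 was called as well (log2 -0.31, adjusted p = 0.0087). In LP TTX against 1 h Bic 1 of 6 markers of the oligodendrocyte lineage was lower. Of 9 neuronal markers 2 were higher and 1 lower there, and the part of these cells was not tested.

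Against the untreated control, 3 members remained higher in LP TTX, as were 4.33% of 31694 genes: Btg1 at 2.19-fold (log2 1.13, SE 0.10, adjusted p = 1.7e-11), Btg2 at 1.89-fold (log2 0.92, SE 0.12, adjusted p = 1.0e-06) and Tob2 at 1.87-fold (log2 0.90, SE 0.10, adjusted p = 1.5e-08). Tob1 differed from control by -0.22 (SE 0.10, adjusted p = 0.27, 95% interval -0.43 to -0.02). In that comparison 1 of 6 markers of the oligodendrocyte lineage was lower and 2 of 9 neuronal markers were higher, and their part was not tested. In LP TTX/NMDA 4 members were above control, as were 10.9% of 32092 genes, from 12-fold for Btg2 (log2 3.58, SE 0.10, adjusted p = 8.8e-27) to 2.39-fold for Tob1 (log2 1.26, SE 0.10, adjusted p = 4.3e-12).

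Expressed as the share of the Bic-induced rise that was present at the end, with the rise of uninterrupted Bic in the same preparation as the whole, LP TTX left 8.17% ± 4.85 of the Btg2 rise (SD, n = 5), 46.8% ± 11.5 of the Tob2 rise and 53.6% ± 10.7 of the Btg1 rise. The Tob1 value was -30.3% ± 37.4 and ranged from -81.6% to 11.8%, since the 2 h rise of Tob1 is small and the TTX level lay around the control level. SP TTX left 60.7% ± 7.75 of the Btg2 rise, 63.5% ± 23.4 of that of Btg1, 66.9% ± 27 of that of Tob2 and 88.7% ± 17.8 of that of Tob1. With SP TTX/NMDA the shares were 27.1% ± 7.18 for Btg2, 29.2% ± 5.67 for Btg1, 36.2% ± 6.18 for Tob1 and 16.7% ± 12.7 for Tob2. With LP TTX/NMDA they were 108% ± 29.3 for Btg2, 83.5% ± 9.83 for Btg1, 101% ± 18.6 for Tob2 and 247% ± 122 for Tob1, the last with a range of 153% to 410%.

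**Figure D4:**
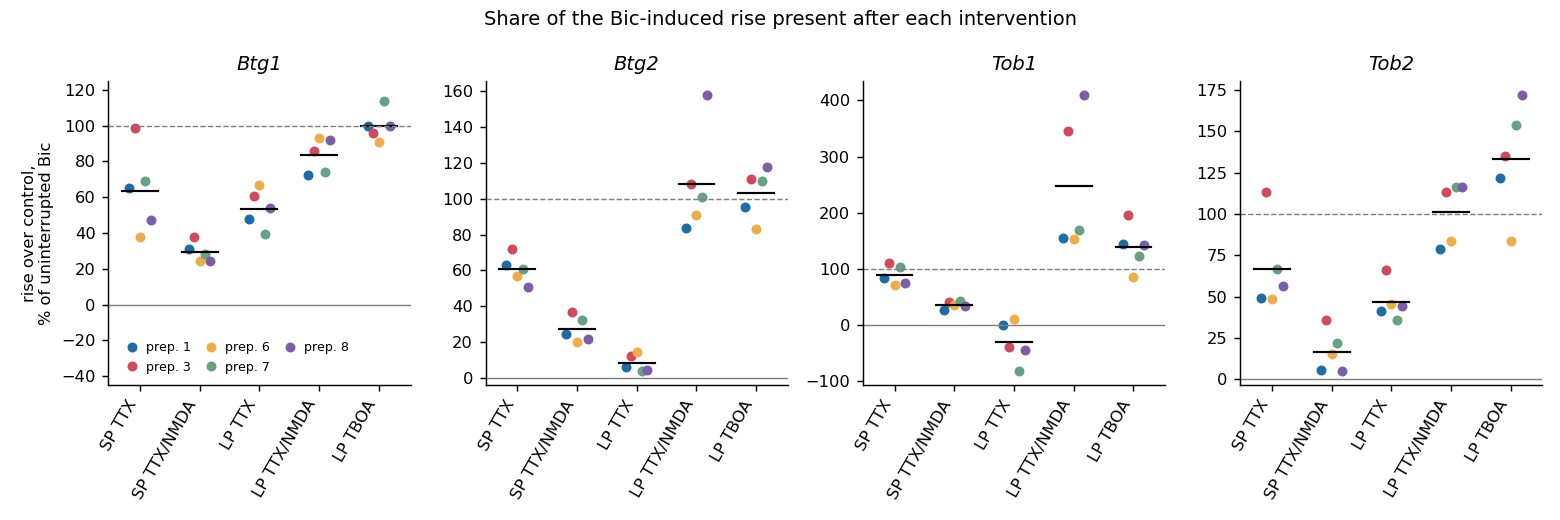
Rise over control after each intervention as a percentage of the rise under uninterrupted Bic (1 h for the short and 2 h for the long protocol), by preparation, with bars at the mean of 5; the dashed line is 100% and the panels have separate scales. After TTX in the long protocol Btg2 keeps 3.8% to 14.5% of its rise and Btg1 39.3% to 66.6%.

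With TBOA, the milder model of excitotoxicity, no member was called against 2 h Bic, where 0.602% of 31706 genes were called in either direction. Of the 5 members, 0 passed the adjusted threshold in edgeR and 0 in DESeq2, while 2 had an unadjusted p below 0.05 in edgeR and 1 in DESeq2. Btg2 measured 281, 283, 227, 242 and 209 CPM in LP TBOA, which overlapped the 2 h Bic values (log2 0.03, SE 0.09, adjusted p = 0.93, 95% interval -0.14 to 0.21). Btg1 was at 82.8, 75.3, 78, 74 and 70.6 CPM, within its 2 h Bic range (log2 0.0048, SE 0.07, 95% interval -0.12 to 0.13).

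Tob1 had 62, 61.6, 50.4, 51.6 and 41.6 CPM in LP TBOA and differed from 2 h Bic by 0.18 (SE 0.09, adjusted p = 0.6, 95% interval 0.01 to 0.35). Tob2 had 55.9, 58.7, 49.1, 54.1 and 50.3 CPM and differed by 0.24 (SE 0.08, adjusted p = 0.29, 95% interval 0.08 to 0.40), higher in 4 of 5 preparations. Without preparation 6, the 1 in which Tob2 was lower with TBOA, the difference was 0.35 (adjusted p = 0.023).

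In the comparison of TBOA with LP TTX, 2 of 6 markers of the oligodendrocyte lineage were higher and no marker of the other lists was called, with lineage sums of 131 to 199 CPM in LP TBOA and 99 to 166 CPM in LP TTX; their part was not tested. Against LP TTX, 4 members were higher with TBOA, as were 0.759% of 32418 genes, from 6.20-fold for Btg2 (log2 2.63, SE 0.11, adjusted p = 1.2e-19) through 2.17-fold for Tob1 (log2 1.12, SE 0.09, adjusted p = 2.5e-11) and 1.79-fold for Tob2 (log2 0.84, SE 0.08, adjusted p = 1.2e-09) to 1.47-fold for Btg1 (log2 0.55, SE 0.08, adjusted p = 2.9e-06). Against LP TTX/NMDA, 2 members were called. Tob1 was lower with TBOA at 0.78-fold (log2 -0.36, SE 0.09, adjusted p = 0.0042), as were 8.6% of 32684 genes, and Tob2 was higher at 1.19-fold (log2 0.25, SE 0.08, adjusted p = 0.023), as were 7.99%. The Tob2 call was lost without preparation 1 (adjusted p = 0.17). The difference for Btg1 (log2 0.18, SE 0.08, adjusted p = 0.12) was called with the preparation as a block (adjusted p = 0.03), where 22.4% of 16216 genes were higher, and without preparation 6 (adjusted p = 0.034), and that for Btg2 was -0.02 (SE 0.08, 95% interval -0.18 to 0.13). Astrocyte markers moved in this comparison too, with 1 of 6 higher and 5 lower with TBOA, as did 3 of 6 markers of the oligodendrocyte lineage and 2 of 4 genes of dividing cells, all lower, and 4 of 9 neuronal markers, 3 of them higher; their part was not tested. Against control, 4 members were higher with TBOA, as were 3.54% of 31573 genes, with Tob2 at 3.34-fold (log2 1.74, SE 0.09, adjusted p = 6.6e-19). There 2 of 6 astrocyte markers were higher and no marker of the other lists was called, and their part was not tested.

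Btg3 had 3 to 48 reads per library with a median of 17, and the SE of its log2 differences was correspondingly larger than that of the other members. Its level in preparations 1, 3, 6, 7 and 8 was 0.783, 0.453, 0.515, 0.56 and 0.416 CPM in the control and 0.24, 0.372, 0.368, 0.447 and 0.466 CPM after 0.5 h of Bic. It was 0.835, 0.649, 0.585, 0.709 and 0.78 CPM after 2 h of Bic and 0.515, 0.765, 0.673, 0.635 and 1.3 CPM in LP TTX. The ranges overlapped in every comparison. Over the 22 comparisons of 2 conditions, Btg3 was called in 0 by edgeR and in 0 by DESeq2, and had an unadjusted p below 0.05 in 1 with each. Its log2 difference from control was -0.45 (SE 0.34, 95% interval -1.12 to 0.22) at 0.5 h and 0.38 (SE 0.27, 95% interval -0.15 to 0.92) at 2 h, the LP passive difference was 0.16 (SE 0.25) and the LP active difference -0.28 (SE 0.27). In the test for any difference among the 9 conditions, which 26% of 37048 genes passed, the other 4 members were called with adjusted p from 4.3e-36 (Btg2) to 9.3e-22 (Tob1), and Btg3 was not (adjusted p = 0.1). With the preparation as a block, a fit in which 75.7% of 16492 genes passed, Btg3 was called as well (adjusted p = 0.013).

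Over the 22 comparisons, Btg2 was called in 18 (10 higher, 8 lower), Tob1 in 18 (10 higher, 8 lower), Tob2 in 17 (12 higher, 5 lower) and Btg1 in 16 (11 higher, 5 lower). In order of mean level, Btg2 went from control (21.3 ± 2.89 CPM) through LP TTX (40.5 ± 11.1), SP TTX/NMDA (110 ± 20.5), 0.5 h Bic (183 ± 27.5), SP TTX (221 ± 21.7), 2 h Bic (245 ± 43.9), LP TBOA (248 ± 32.7) and LP TTX/NMDA (254 ± 21.2) to 1 h Bic (352 ± 29.4). The 3 lowest of these and the highest did not overlap their neighbours, though SP TTX/NMDA and 0.5 h Bic each had a library at 138 CPM. The ranges of neighbours from 0.5 h Bic to LP TTX/NMDA overlapped. Btg1 was lowest in the control (23.4 ± 2.93 CPM) and highest in LP TBOA (76.1 ± 4.59) and 2 h Bic (76.5 ± 7.02), and only the control stood clear of its neighbour. For Tob1 the lowest conditions were LP TTX (24.9 ± 3.64 CPM) and control (28.6 ± 4.9), whose ranges overlapped and lay clear of SP TTX/NMDA (47.1 ± 6.58), and the highest was 1 h Bic (80.4 ± 4.61). Tob2 ran from control (15.9 ± 1.75 CPM) to LP TBOA (53.6 ± 3.95) in steps in which every pair of neighbours overlapped.

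The genes most like each member were taken by Pearson r of log2 CPM over the 45 libraries, after the mean of each preparation was subtracted, among 13592 genes with a mean of at least 1 CPM. The libraries share treatments and preparations, so these r are descriptions. Btg2 was most like Dusp1 (r = 0.98) and Dusp6 (r = 0.97), which encode phosphatases of MAP kinases, and Ccn1 (r = 0.97), which encodes a secreted matrix protein. For Tob1 the nearest genes were Btg2 (r = 0.89), Ccn1 (r = 0.88) and Dusp6 (r = 0.83). Btg1 ran closest to Sik1, a salt-inducible kinase (r = 0.97), Otud1, a deubiquitinase (r = 0.97), and Rasl11a, a small GTPase (r = 0.96). Tob2 ran closest to Klf4, a transcription factor (r = 0.94), Adamts1, a secreted metalloprotease (r = 0.94), and Irf2bp2, a transcriptional corepressor (r = 0.94). Among the members, Btg1 and Tob2 had an r of 0.94, with 16 genes at a higher r to Btg1, a count that includes Btg1 itself. Btg2 and Tob1 had 0.89, with 6 genes at a higher r to Btg2, a count that includes Btg2 itself. Btg1 and Tob1 were the least alike of the 4, at 0.45. Btg3, below 1 CPM, was not compared.

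Of 15 subunits of the CCR4-NOT, PAN2-PAN3 and PARN deadenylases, 0 were higher and 2 lower at 2 h of Bic, where 4.24% of genes were higher and 4.78% lower, and the median log2 fold change of the list was -0.14 against -0.0020 over 13592 genes. Both were subunits of CCR4-NOT, Cnot11 (0.754-fold, log2 -0.41, SE 0.08, adjusted p = 2.1e-04) and Cnot8, a catalytic partner of the family (0.8-fold, log2 -0.32, SE 0.07, adjusted p = 0.0027). In the LP passive effect 3 were higher, namely the nucleases Cnot6l (1.22-fold, log2 0.29, SE 0.07, adjusted p = 0.0063) and Cnot6 (1.22-fold, log2 0.28, SE 0.08, adjusted p = 0.021) and the ubiquitin ligase Cnot4 (1.2-fold, log2 0.26, SE 0.07, adjusted p = 0.025), and 1 was lower, where 3.03% of all genes tested were higher and 1.62% lower. The median was 0.0034, against -0.0028 over all genes. In the LP active effect 2 were higher and 4 lower, where 11.6% of all genes tested were higher and 11.8% lower, with a list median of -0.09 against -0.01. The 3 lowest adjusted p were those of the scaffold Cnot1 (0.717-fold, log2 -0.48, SE 0.07, adjusted p = 1.5e-06), of Cnot6l (0.723-fold, log2 -0.47, SE 0.08, adjusted p = 6.2e-05) and of Tnks1bp1 (0.81-fold, log2 -0.30, SE 0.06, adjusted p = 6.2e-04), all lower in 5 of 5 preparations. With the preparation as a block 5 of the 15 were called at 2 h of Bic, 6 in the LP passive effect and 11 in the LP active effect, where 29.3%, 32% and 62.1% of genes were called in either direction, and DESeq2 called 3, 6 and 8.

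The 12 poly(A)-binding and 3′ end binding proteins, several of which can bring TOB proteins or deadenylases to mRNAs, formed the second list. At 2 h of Bic 4 were higher and 2 lower, where 4.24% of genes were higher and 4.78% lower, with a list median of 0.24 against -0.0020 over 13592 genes. Cpeb3, a translational regulator at synapses, was 2.15-fold higher (log2 1.11, SE 0.09, adjusted p = 3.6e-11), at 147 ± 17.6 CPM against 67.7 ± 9.96. Pum2, which encodes an RNA-binding repressor of translation, was lower (0.817-fold, log2 -0.29, SE 0.08, adjusted p = 0.0086). In the LP passive effect 4 were higher and 1 lower, where 3.03% of genes were higher and 1.62% lower, with a list median of 0.05 against -0.0028. Cpeb4 (1.4-fold, log2 0.48, SE 0.06, adjusted p = 3.3e-06) and Cpeb3 (1.39-fold, log2 0.48, SE 0.07, adjusted p = 3.4e-05) were higher, and Zfp36l2, which binds AU-rich elements, was lower (0.55-fold, log2 -0.86, SE 0.14, adjusted p = 8.8e-05). In the LP active effect 3 were higher and 4 lower, where 11.6% of genes were higher and 11.8% lower, with a list median of -0.07 against -0.01. Cpeb3 (0.339-fold, log2 -1.56, SE 0.09, adjusted p = 7.0e-14) and Cpeb4 (0.522-fold, log2 -0.94, SE 0.09, adjusted p = 1.7e-09) were lower, and Zfp36l2 was higher (2.41-fold, log2 1.27, SE 0.13, adjusted p = 1.2e-08). In each of these comparisons the named genes had the same sign in 5 of 5 preparations.

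Of 7 growth control partners, 0 were called at 2 h of Bic and 0 in the LP passive effect by edgeR. At 2 h of Bic 2 of them had an unadjusted p below 0.05 and DESeq2 called 1. The fit with the preparation as a block called 2, where 29.3% of 15269 genes were called in either direction. In the LP passive effect 1 had an unadjusted p below 0.05 and DESeq2 called 0. The fit with the preparation as a block called 1, where 32% of 15570 genes were called in either direction. In the LP active effect 2 were higher and 1 lower, where 11.6% of genes were higher and 11.8% lower. With the block 6 were called, where 62.1% of 16399 genes were called in either direction. Ccnd1, the cyclin D1 gene that BTG2 is known to restrain in dividing cells, was 1.61-fold higher (log2 0.69, SE 0.07, adjusted p = 2.7e-08), at 134 ± 13.6 CPM against 82.7 ± 6.04. Of the 4 SMAD genes of the BMP pathway, on which TOB1 is known to act, Smad5 was 1.37-fold higher (log2 0.45, SE 0.08, adjusted p = 4.6e-05) and Smad4 was lower at 0.81-fold (log2 -0.30, SE 0.08, adjusted p = 0.0035), and Smad1 (log2 0.06, SE 0.07, adjusted p = 0.6) and Smad9 (log2 0.20, SE 0.12, adjusted p = 0.27) were not called. Genes of dividing cells were higher in the same comparison, as given above, and their part was not tested.

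**Figure D5:**
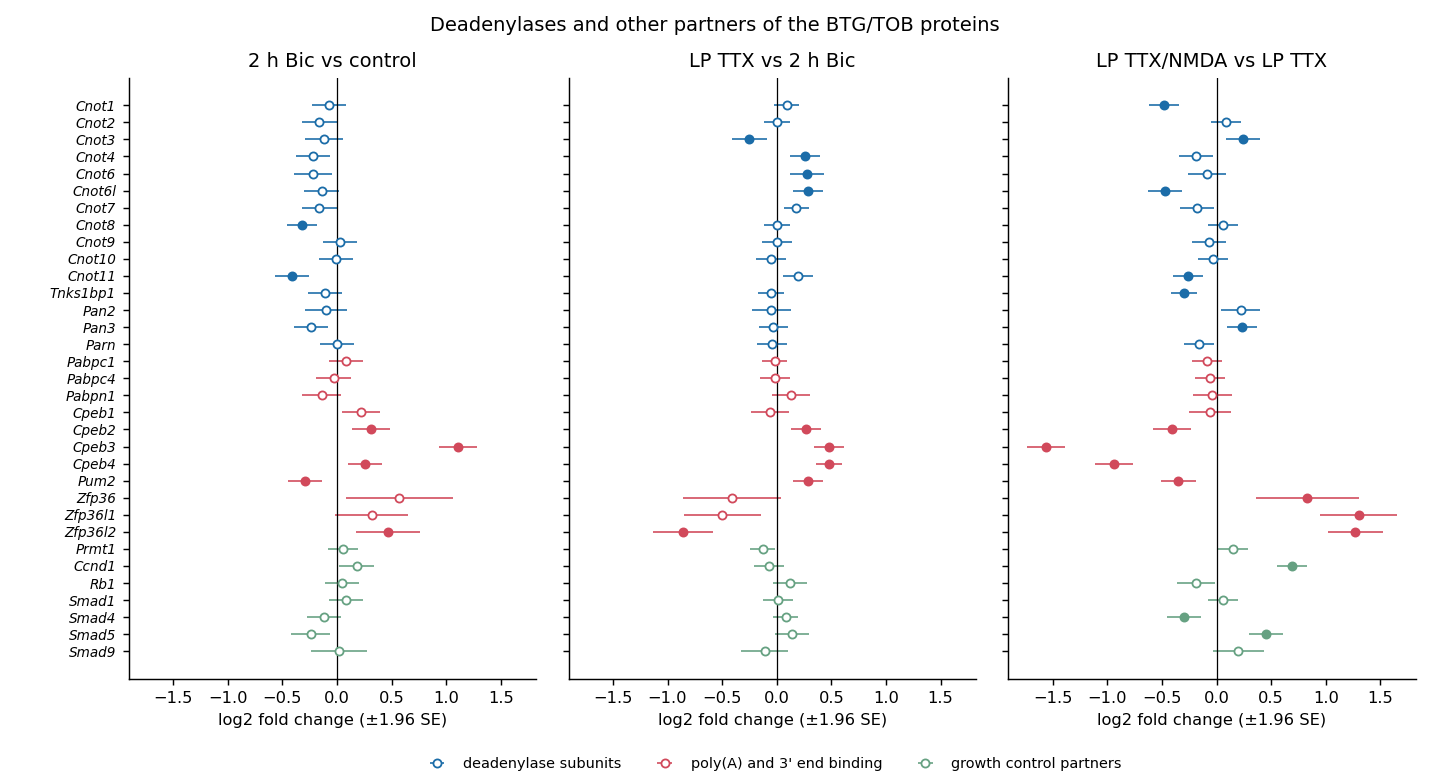
Log2 fold change of genes of 3 pathway lists at 2 h of Bic against control, for the passive and for the active effect of the long protocol; bars are 95% intervals and filled points are called at an adjusted p below 0.05. Most deadenylase subunits lie close to 0 in all 3 panels, while Cpeb3 is at 1.11 on the left and -1.56 on the right.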

How the data were processed

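RNA of 45 cultures (9 conditions, 5 preparations) was sequenced as poly(A)-enriched, directional libraries in single-end reads of 75 cycles. The deposited values are raw counts per gene, for which the authors aligned reads with STAR 2.5.4b to GRCm38 (Ensembl 94) and counted them with featureCounts 1.6.5, by strand and without reads that matched several places or genes; bcl2fastq 2.20.0.422 is named in the submitters' processing notes. Symbols, exon lengths and positions came from GENCODE M21 (Ensembl 96), which matched 54409 of 54532 identifiers. Libraries held 11316580 to 81129276 counted reads. SEs and 95% intervals come from fits without the preparation as a block. They do not measure how far the change of a gene varied between the 5 preparations. For Btg2 from 1 h to 2 h of Bic the SE was 0.08, while the changes of the 5 preparations had an SD of 0.35.

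Each comparison was fitted on its own conditions with edgeR 4.0.16 (R 4.3.3): TMM scaling, genes with at least 1 read in any library, quasi-likelihood test, Benjamini-Hochberg adjustment and a threshold of 0.05. The study's methods used DESeq2 for this step, which served here as an alternative (1.42.0). Protocols were compared through an interaction term. CPM were scaled by TMM over all 45 libraries, with a prior count of 2 for log2 CPM. Fits were tested on simulated data. Python 3.11.15, numpy 2.4.6, pandas 2.3.3, scipy 1.17.1 and matplotlib 3.10.9 were used for summaries and figures.

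Each library title holds a bare number (1, 3, 6, 7 or 8). Equal numbers were read as a shared culture preparation, since the study reports 5 separate preparations. Over 13601 genes, deviations from the condition means correlated with a mean r of 0.45 between libraries of 1 preparation, with a range of -0.36 to 0.8. The mean r of -0.11 between preparations largely follows from subtracting the condition means and is not a separate observation. The other settings were RLE size factors, filterByExpr, DESeq2, the preparation as a block together with filterByExpr, 1 fit over all 45 libraries, and leaving out each preparation.

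Named genes were the 5 members, the 3 genes most like each, and, per pathway list, up to 3 called genes with the lowest adjusted p at 2 h of Bic and in the LP passive and active effects; other genes appear as markers or overlapping genes. A gene that this rule names is counted with its list but not reported or plotted here. The members and lists were chosen with earlier results of these data known.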

Additional observations from a re-analysis of the deposited data

Results flagged for a closer look

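In 2 of 45 groups of 5 libraries 1 value stood apart from the others, where chance alone gives about 1 in 20 groups. Tob1 was at 43.2 CPM in preparation 1 after 0.5 h of Bic, against 61.4 to 67.2 CPM in the other preparations. Tob2 was at 41 CPM in preparation 3 after 1 h of Bic, against 51.7 to 55 CPM in the others.

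The effects of the interventions differed between the protocols by the interaction term (edgeR, LP minus SP, log2 scale). For the passive effect the difference was -1.94 for Btg2 (adjusted p = 2.1e-11) and -0.82 for Tob1 (adjusted p = 1.4e-04). For the active effect it was 3.67 for Btg2 (adjusted p = 6.9e-18), 2.14 for Tob1 (adjusted p = 1.0e-13), 1.44 for Tob2 (adjusted p = 6.2e-09) and 0.83 for Btg1 (adjusted p = 3.1e-05). For the total effect it was 1.72 for Btg2 (adjusted p = 1.8e-10), 1.30 for Tob1 (adjusted p = 8.3e-09), 1.23 for Tob2 (adjusted p = 5.8e-07) and 0.67 for Btg1 (adjusted p = 4.4e-04). All 10 differences had the same sign in 5 of 5 preparations.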

How the results depend on the processing

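Neither RLE size factors nor DESeq2 moved any of the 26 counts of members called by more than 1.5 times. With DESeq2 the call of Btg1 in LP TTX against 1 h Bic was lost (adjusted p = 0.068). In the SP passive effect 3 members were called, and 1 (Btg2) with filterByExpr or with the preparation as a block. In the LP total effect the count of 1 became 2 with the block, and 1 to 2 when each preparation was left out. For TBOA against TTX/NMDA the count of 2 became 1 in the fit over all 45 libraries, and 1 to 3 with a preparation left out. For SP TTX/NMDA against 0.5 h Bic the count of 2 became 1 with filterByExpr and in the fit over all 45 libraries, 4 with the preparation as a block, and 1 to 2 with a preparation left out. For LP TTX/NMDA against 1 h Bic the count of 2 became 1 in the fit over all 45 libraries and 1 to 3 with a preparation left out. Leaving out a preparation gave 0 to 1 for the spillover effect (0 in full) and 1 to 4 for SP TTX against 0.5 h Bic (1 in full). Fits with a preparation left out kept 4 libraries a condition.

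Among the results tried, the directions that reversed belonged to differences that were not called. Btg3 was tried under the alternatives in 4 of its comparisons, 0.5 h and 2 h of Bic against control and the LP passive and active effects. These were Btg3 in the LP passive effect (-0.04 without preparation 8, range -0.04 to 0.31), Btg2 in the LP total effect (-0.08 without preparation 8, range -0.08 to 0.14) and Tob2 in the LP total effect (0.01 with the preparation as a block, 0.04 without preparation 1 or 6, range -0.06 to 0.04). In the spillover effect they were Btg1 (-0.0012 with RLE, -0.0011 with DESeq2, -0.01 in the fit over all 45 libraries, -0.03 without preparation 7, range -0.03 to 0.03) and Btg2 (-0.0039 without preparation 3, -0.00055 without preparation 8, range -0.0039 to 0.10). For TBOA against TTX/NMDA it was Btg2 (0.01 without preparation 6, 0.06 without preparation 8, range -0.10 to 0.06). The cause was not tested. Apart from the block values given here and beside the results, the block changed no call of a member. Low counts limit Btg3 alone among the members.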
